A study of Mus musculus with 12 samples.

Results

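The genes described here encode the proteins of the mitochondrial ribosome and are named Mrpl (large subunit) and Mrps (small subunit). All rows of the deposited table whose symbol is Mrpl or Mrps, a number and at most 1 further letter were taken: 78 of 19716 genes, 49 Mrpl and 29 Mrps. All 78 reached the 1 RPKM (reads scaled by transcript length and library size) in at least 1 group that was asked of tested genes, as did 10197 genes in all. The RNA came from cultured embryonic stem cells (ESC) of the mouse with an HA-Flag-AGO2 transgene under doxycycline control. AGO2 is an Argonaute, the protein that carries miRNAs to their targets. The 4 groups were nuclear RNA after 15 h in 2.5 ug/ml doxycycline (dox), nuclear RNA without dox, total RNA of whole cells after the same dox, and total RNA without dox. The transgene is shared by every group, so the controls carry it too. The labels list 3 libraries a group and do not say whether these came from separate cultures, or whether the line is 1 clone. P-values therefore measure the spread between libraries, which may be technical.

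The mitochondrial ribosome translates the few mRNAs of the mitochondrial genome, which code for core subunits of the respiratory chain. Its RNAs are made inside the organelle, while every one of its proteins is encoded in the nucleus, made in the cytosol and imported. Many of these proteins have a homologue in the bacterial ribosome, and the others are specific to mitochondria. Their genes are active in most tissues, and their promoters are known for binding sites of NRF1, of ETS factors such as GABP and of YY1.

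The deposited table gives a mean for each group and no value of single libraries, so the means below, the authors' own, have no SD. The deposited p-values matched an ANOVA with 6 residual degrees of freedom, which 10 of the 12 libraries in 4 groups would leave. All 12 libraries with a further term could leave as many, so the p-values do not give the number of libraries per column. The fit took 10 libraries: 3 with dox and 2 without for nuclear RNA, and 2 with dox and 3 without for total RNA. The SEs of nuclear against total RNA and the depths below rest on that choice. Depth was estimated from the steps of low RPKM values, for the 10 libraries of that choice alone. It was 10.34 to 11.79 M reads in dox libraries and 15.29 to 18.9 M reads in no-dox libraries. By this estimate every dox library among them was the shallower. Of the pluripotency markers Pou5f1 was high (326 RPKM with dox and 63.2 RPKM without in nuclear RNA, and 375 and 94.1 RPKM in total RNA). Esrrb lay between 24.9 and 62.6 RPKM, and other such markers are not reported here. Of 3 fibroblast markers in the table Col1a1 stayed at or below 0.111 RPKM and Thy1 at or below 0.818 RPKM, while Vim lay between 9.34 and 46.0 RPKM. The 2 labels did not match the control gene given here for each, Ago2 for dox and Malat1 for nuclear RNA. Other RNAs retained in the nucleus are not reported here. Ago2, the gene to be induced, was lower in the dox columns: 2.39 RPKM in nuclear dox against 8.65 RPKM in nuclear no dox, and 3.43 RPKM in total dox against 9.12 RPKM in total no dox (log2 fold changes -1.85 and -1.41, limma Benjamini-Hochberg adjusted p = 4.99e-07 and 7.91e-06). How much of the transgene is counted there is not stated in the sources used here. Malat1, an RNA retained in the nucleus, had 77.3 RPKM in nuclear dox against 140 RPKM in total dox, and 467 RPKM in nuclear no dox against 633 RPKM in total no dox. Dox, no dox, nuclear and total are therefore used below as names of the columns as labelled.

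Promoters were taken from RefSeq (GRCm38.p6), as windows from 250 bases before to 50 bases after a gene's start, and were found by symbol for 69 of the 78 genes. The letters NRF1 binds (GCGCA, any base, then GCGC) were found on either strand in 13 of 69 (18.8%), against 12.6% of tested genes and 5.19% of all genes with a promoter. The ETS letters CCGGAAG were found in 26 (37.7%, against 22.5% and 9.93%), and the YY1 letters AAGATGGC in 12 (17.4%, against 6.01% and 3.19%). The E-box CACGTG, bound by MYC, was found in 5 (7.25%, against 12.6% and 8.09%), and TGATGNAA, bound by ATF4, in 0 of 69 (2.68% and 4.51%). Matches of different motifs were counted separately, also where they overlap. Mrpl12, the member with the largest dox difference, and Mrpl45 are shown for the NRF1 letters, and Mrpl52, the member with the highest level, for the ETS letters. Capitals mark the match, and each window runs from 250 to 31 bases before the start, on the strand of the gene (plus in each). The windows are chr11:120484387-120484606 for Mrpl12, chr11:97315466-97315685 for Mrpl45 and chr14:54426659-54426878 for Mrpl52.
Mrpl12: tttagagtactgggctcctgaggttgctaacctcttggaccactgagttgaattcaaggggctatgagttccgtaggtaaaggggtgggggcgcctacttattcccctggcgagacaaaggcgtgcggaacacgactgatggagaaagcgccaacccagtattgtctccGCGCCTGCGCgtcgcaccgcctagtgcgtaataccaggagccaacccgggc
Mrpl45: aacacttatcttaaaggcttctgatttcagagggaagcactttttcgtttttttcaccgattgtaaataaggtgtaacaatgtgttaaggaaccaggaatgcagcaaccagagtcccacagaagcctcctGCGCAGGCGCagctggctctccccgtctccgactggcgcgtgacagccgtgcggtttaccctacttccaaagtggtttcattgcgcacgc
Mrpl52: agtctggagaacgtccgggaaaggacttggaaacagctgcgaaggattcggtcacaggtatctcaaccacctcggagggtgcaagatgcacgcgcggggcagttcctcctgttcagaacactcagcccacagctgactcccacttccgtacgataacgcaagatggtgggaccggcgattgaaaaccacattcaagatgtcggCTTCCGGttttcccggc
The NRF1 match lay 81 bases before the start in Mrpl12 (on the other strand) and 120 bases before it in Mrpl45, and the ETS match of Mrpl52 lay 47 bases before it (on the other strand). Members with and without a match differed little in nuclear RNA: their median log2 fold change of dox over no dox was 1.33 with and 1.21 without the NRF1 letters, 1.26 and 1.25 for the ETS letters, and 1.29 and 1.21 for the YY1 letters.

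The mRNAs ranged widely in level, and their median lay above that of all tested genes in every column. The median member had 10.07 RPKM with dox and 3.45 RPKM without in nuclear RNA, and 9.57 RPKM with dox and 4.35 RPKM without in total RNA. Over all tested genes the medians in the same columns were 2.89, 2.62, 3.73 and 3.27 RPKM. The subunits were alike in level: in the same order of columns the medians were 9.64, 3.38, 9.30 and 4.28 RPKM for Mrpl genes and 10.91, 4.25, 11.20 and 4.43 RPKM for Mrps genes. Mrpl52, a mitochondria-specific protein of the large subunit, was highest, with 42.0, 16.9, 38.9 and 18.0 RPKM. It was followed, by the mean over the columns, by Mrpl12, Mrps18b, Mrpl28 and Mrps16. Mrpl1, the protein of the L1 stalk by which spent tRNA leaves, was lowest (0.931, 1.03, 1.14 and 1.12 RPKM), after Mrpl41 (1.22, 0.888, 1.35 and 0.896 RPKM), Mrpl47, Mrpl48 and Mrps25. The order of the members was much the same in every column: over the 78 genes Spearman's rho was 0.914 between nuclear dox and nuclear no dox, 0.908 between total dox and total no dox, 0.954 between nuclear and total dox and 0.930 between nuclear and total no dox. These correlations are across genes that share the libraries and are given as a description.

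**Figure D1:**
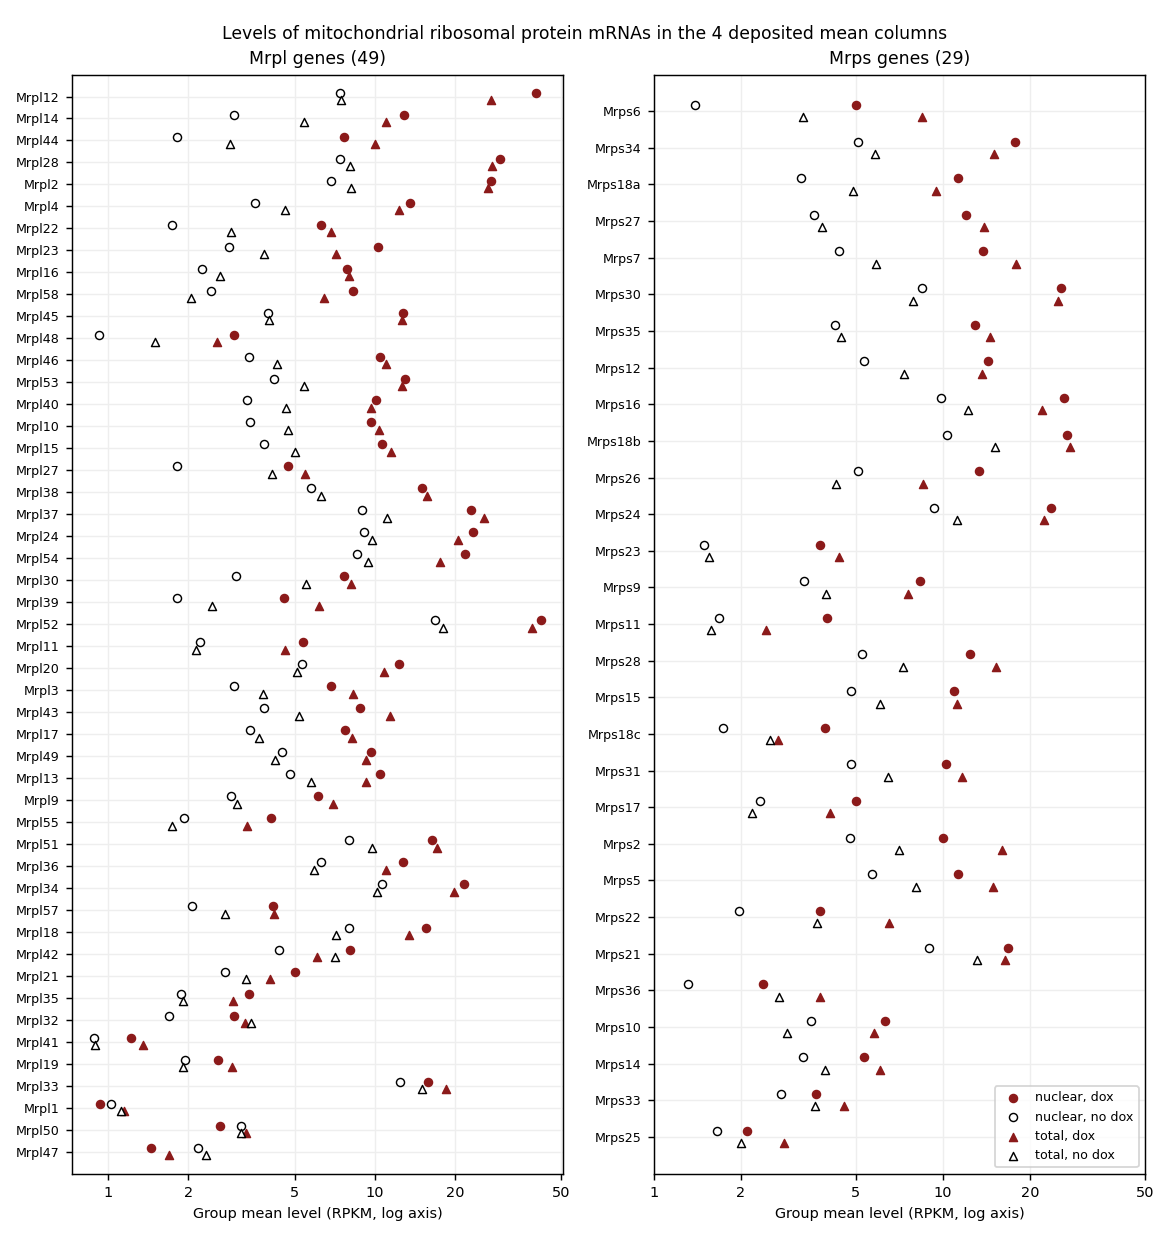
Group mean level in RPKM (log axis) of the 49 Mrpl genes (left) and 29 Mrps genes (right), sorted by their dox fold change in nuclear RNA. Filled marks are dox columns and open marks no-dox columns, circles nuclear and triangles total RNA; filled marks lie to the right for most genes, and Mrpl47, at the bottom left, is the exception (1.45 RPKM with dox and 2.17 RPKM without in nuclear RNA).

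The first comparison sets the dox column against the no-dox column in nuclear RNA; by the labels it bears on AGO2 induction, which the Ago2 values above do not show. mRNAs of both subunits were higher in the dox columns. Of the 78 members 68 were higher (87.2%) and 0 lower, where 43.1% of all tested genes were higher and 26.2% lower at an adjusted p below 0.05 (72 members were higher and 1 lower at an unadjusted p below 0.05). At least 2-fold higher were 59 members, against 25.6% of tested genes. The median log2 fold change was 1.30 for members and 0.28 for all tested genes. Mrpl genes (42 of 49 higher, median 1.31) and Mrps genes (26 of 29, median 1.25) were close to each other. More abundant genes were more often higher. Among the 4895 genes of at least 5 RPKM in a group, 65.2% were higher and 18.4% lower, with a median of 0.79. Of the 61 members there 61 were higher, with a median of 1.36. Making the columns alike in distribution by quantile normalization lowered the median of all tested genes to 0.09 and that of the members to 0.78, and left 59 members higher and 2 lower (Mrpl33 and Mrpl50). Of all tested genes 34.8% were then higher and 29.6% lower. Whether the 2 groups of cells differ in their share of some cell type or in RNA per cell cannot be told apart in such bulk RNA.

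In total RNA the same comparison gave a smaller median difference. Of the 78 members 64 were higher (82.1%) and 0 lower, where 41.5% of all tested genes were higher and 22.8% lower (66 and 0 members at an unadjusted p below 0.05). At least 2-fold higher were 39 members, against 22.4% of tested genes. The median log2 fold change was 0.98, against 0.26 for all tested genes. It was 1.07 for Mrpl genes, of which 39 of 49 were higher, and 0.90 for Mrps genes, of which 25 of 29 were higher. Among the 4895 genes of at least 5 RPKM in a group, 63.2% were higher and 17.8% lower, with a median of 0.73. Of the 61 members there 56 were higher and 0 lower, with a median of 1.08. After quantile normalization 53 members were higher and 1 lower (Mrpl33), with a median of 0.61 against 0.11 for all tested genes. Of the latter 34.7% were then higher and 28.0% lower. Across both comparisons 62 members were higher in both kinds of RNA (38 Mrpl, 24 Mrps), 6 passed the test in nuclear RNA alone, 2 in total RNA alone and 8 in neither.

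**Figure D2:**
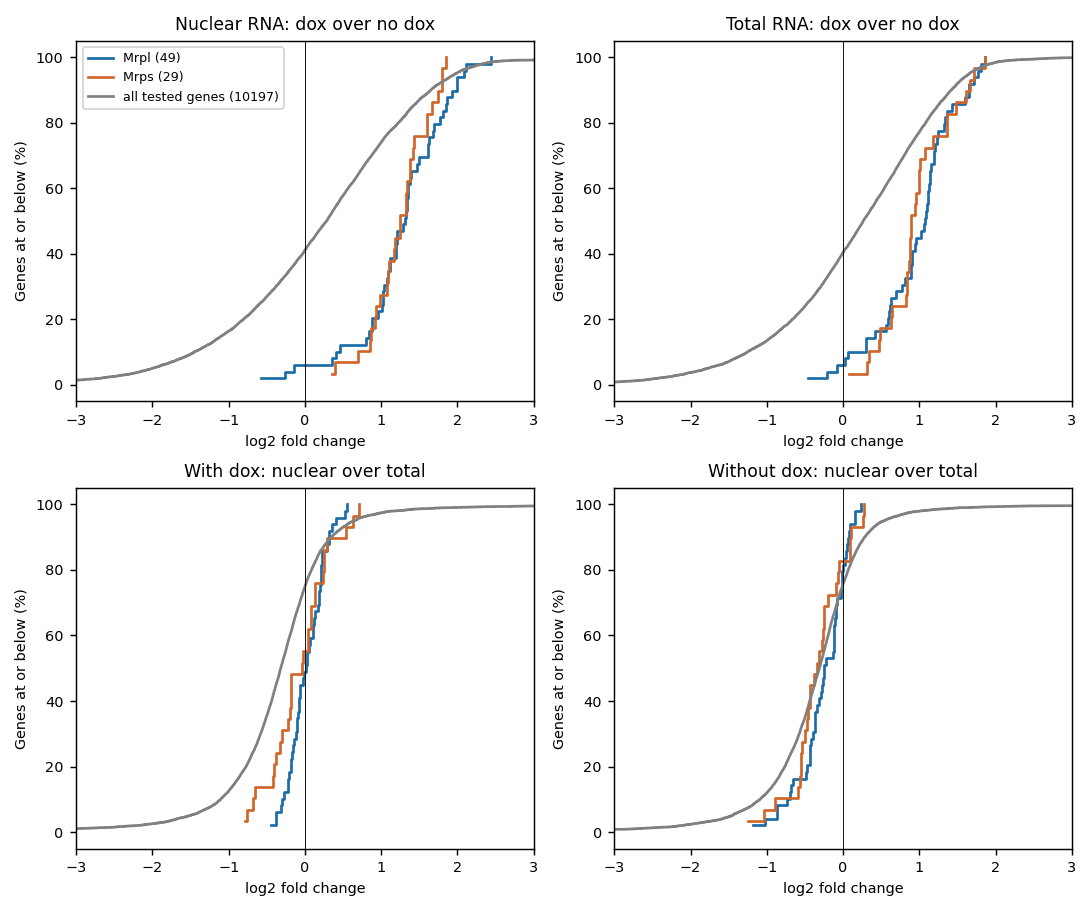
Share of genes (percent) at or below each log2 fold change for Mrpl genes, Mrps genes and all 10197 tested genes, in 4 comparisons. In the upper panels (dox over no dox) both subunits lie to the right of all genes, with medians of 1.31 and 1.25 in nuclear RNA; in the lower panels (nuclear over total) they lie right of all genes with dox and close to them without.

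In the large subunit the stalk genes had the largest single difference. The stalk binds translation factors, and Mrpl12, its L7/L12 protein, is also known to bind the mitochondrial RNA polymerase. Mrpl12 (ENSMUSG00000039640.7, chromosome 11, 120484613 to 120489065, plus strand) had 40.0 RPKM in nuclear dox against 7.39 RPKM in nuclear no dox, and 27.3 RPKM in total dox against 7.47 RPKM in total no dox. Both dox means thus lay far above both no-dox means. The log2 fold changes were 2.44 (SE 0.123, adjusted p = 3.81e-09), or 5.42-fold, and 1.87 (SE 0.123, adjusted p = 5.59e-08), or 3.65-fold. Mrpl10, which anchors Mrpl12 to the ribosome, was higher in the dox columns by 1.503 in nuclear and 1.14 in total RNA on the log2 scale, and Mrpl11, at the stalk base, by 1.29 and 1.10.

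Some of the proteins around the exit of the peptide tunnel take part in bringing the ribosome to the inner membrane. Of 8 such genes 7 were higher in each kind of RNA (87.5%), with medians of 1.52 in nuclear and 1.198 in total RNA. Among all members 87.2% were higher in nuclear and 82.1% in total RNA, and among all tested genes 43.1% and 41.5%. Mrpl44 had 7.68 RPKM in nuclear dox against 1.81 RPKM in nuclear no dox, and 10.02 RPKM in total dox against 2.87 RPKM in total no dox (log2 fold changes 2.08 and 1.80, SE 0.1703 each). Mrpl45, known as the membrane anchor, had 12.8 RPKM in nuclear dox against 3.97 RPKM in nuclear no dox, and 12.6 RPKM in total dox against 4.01 RPKM in total no dox (1.69 and 1.65). The eighth was Mrpl47, the homologue of bacterial L29 (chromosome 3, 32725397 to 32737605, minus strand). It had 1.45 RPKM in nuclear dox against 2.17 RPKM in nuclear no dox, and 1.69 RPKM in total dox against 2.33 RPKM in total no dox. It was the one member with lower means in both dox columns, and neither difference passed the test (log2 fold changes -0.58, SE 0.255, adjusted p = 0.0578, and -0.46, SE 0.255, adjusted p = 0.127). With each column centred on its median gene, both did (-0.72 and -0.65).

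The central protuberance bridges the subunits. Its genes were higher for 8 of 8 in nuclear RNA (median 1.501) and 7 of 8 in total RNA (median 1.00). The shares of all members were 87.2% and 82.1%, and those of all tested genes 43.1% and 41.5%. Mrpl58, a peptidyl-tRNA hydrolase also known as ICT1, had 8.27 RPKM in nuclear dox against 2.42 RPKM in nuclear no dox, and 6.44 RPKM in total dox against 2.05 RPKM in total no dox (1.77 and 1.65). Mrpl27 was higher in nuclear RNA (4.73 RPKM with dox against 1.81 RPKM without; 1.39, adjusted p = 1.69e-05), while in total RNA its 5.47 RPKM with dox and 4.10 RPKM without did not differ beyond the test (0.41, adjusted p = 0.0623). These 3 groups of large subunit genes were put together with the values known.

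Other large subunit genes with large differences code for proteins near the catalytic centre and the core. Mrpl2, at the peptidyl transferase centre, had 27.2 RPKM in nuclear dox against 6.84 RPKM in nuclear no dox, and 26.7 RPKM in total dox against 8.14 RPKM in total no dox (1.99 and 1.71, SE 0.142 each). Mrpl28 had 29.4 RPKM in nuclear dox against 7.37 RPKM in nuclear no dox, and 27.4 RPKM in total dox against 8.04 RPKM in total no dox (1.997 and 1.77, SE 0.131 each). Mrpl14, at the face that meets the small subunit, had 12.8 RPKM in nuclear dox against 2.97 RPKM in nuclear no dox, and 10.98 RPKM in total dox against 5.43 RPKM in total no dox (2.11 and 1.02, SE 0.253 each). Its no-dox means differ between nuclear and total RNA more than its dox means do. Mrpl3, mutated in human mitochondrial cardiomyopathy, had 6.86 RPKM in nuclear dox against 2.97 RPKM in nuclear no dox, and 8.29 RPKM in total dox against 3.82 RPKM in total no dox (1.21 and 1.12). Mrps30 and Mrps18a carry a small subunit name and sit in the large subunit. Mrps30 had 25.6 RPKM in nuclear dox against 8.43 RPKM in nuclear no dox, and 24.9 RPKM in total dox against 7.86 RPKM in total no dox (1.60 and 1.66).

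In the small subunit Mrps27, which has pentatricopeptide repeats and binds RNA, had 12.0 RPKM in nuclear dox against 3.58 RPKM in nuclear no dox, and 13.8 RPKM in total dox against 3.81 RPKM in total no dox (1.75, SE 0.154, adjusted p = 4.40e-07; 1.86, SE 0.154, adjusted p = 3.79e-07). In Mrps35 the values were 12.9 RPKM in nuclear dox against 4.25 RPKM in nuclear no dox, and 14.6 RPKM in total dox against 4.43 RPKM in total no dox (1.60 and 1.72). In both genes the dox means exceeded the no-dox means about alike in nuclear and total RNA. Mrps12, the homologue of the bacterial protein in which streptomycin resistance arises, had 14.4 RPKM in nuclear dox against 5.31 RPKM in nuclear no dox, and 13.6 RPKM in total dox against 7.34 RPKM in total no dox (1.43 and 0.89, SE 0.124 each). All 16 small subunit genes with a bacterial homologue were higher in nuclear RNA (median 1.22), and 14 were in total RNA (median 0.89). Of 10 mitochondria-specific ones 8 and 9 were higher (1.36 and 0.93). In the large subunit, with Mrps30 and Mrps18a, 25 and 23 of 30 genes with a bacterial homologue were higher (1.21 and 0.99). Of its 21 mitochondria-specific genes 19 and 18 were higher (1.36 and 1.13). Beside these classes stand 87.2% of all members in nuclear and 82.1% in total RNA, and 43.1% and 41.5% of all tested genes. Mrps36, which is known as a part of the oxoglutarate dehydrogenase complex, is in neither class: it had 2.39 RPKM in nuclear dox against 1.31 RPKM in nuclear no dox, and 3.75 RPKM in total dox against 2.702 RPKM in total no dox (0.86, adjusted p = 0.0577; 0.47, adjusted p = 0.293).

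The 3 paralogues of the bacterial S18 protein differed in pattern. In the classes above only Mrps18c was counted as having a bacterial homologue, and Mrps18a and Mrps18b were counted as mitochondria-specific. Mrps18a had 11.3 RPKM in nuclear dox against 3.23 RPKM in nuclear no dox, and 9.49 RPKM in total dox against 4.88 RPKM in total no dox (1.80 and 0.96, SE 0.152 each). Mrps18b had 26.9 RPKM in nuclear dox against 10.3 RPKM in nuclear no dox, and 27.4 RPKM in total dox against 15.1 RPKM in total no dox (1.38 and 0.86, SE 0.123 each). Mrps18c, the paralogue that keeps the bacterial position, had 3.91 RPKM in nuclear dox against 1.74 RPKM in nuclear no dox, and was level in total RNA, with 2.68 RPKM with dox and 2.53 RPKM without (1.17, adjusted p = 0.000140; 0.08, SE 0.196, adjusted p = 0.725). As paralogues they may share some reads, and how the authors counted such reads is not given in the sources used here.

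**Figure D3:**
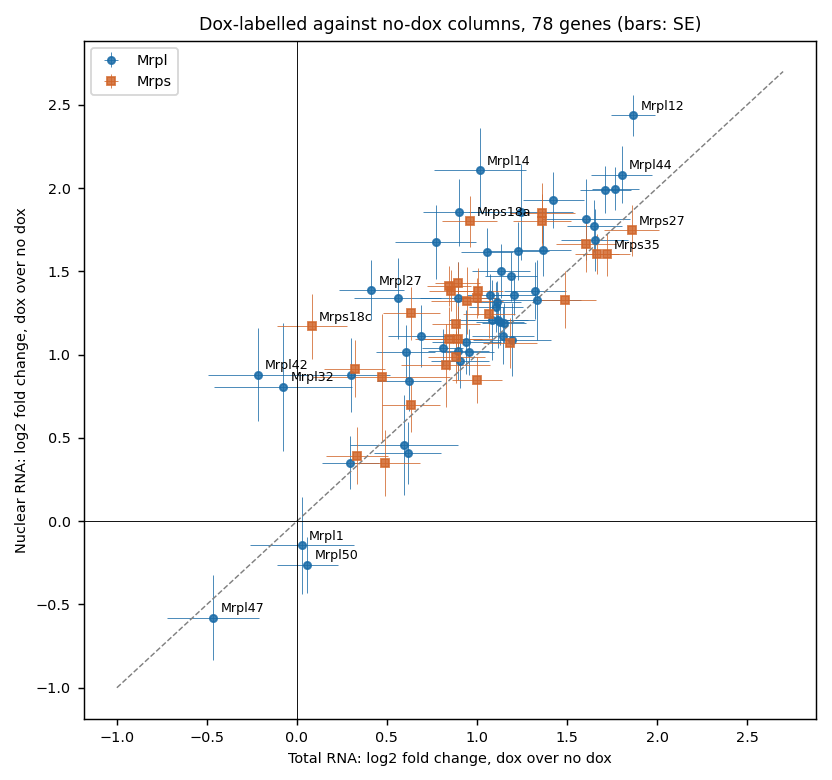
Log2 fold change of dox over no dox in nuclear RNA (vertical) and total RNA (horizontal) for the 78 genes, with bars of 1 SE; the dashed line marks equal values. Of 78 genes 63 lie above the line, Mrpl12 is at the top (2.44 and 1.87) and Mrpl47 at the bottom left (-0.58 and -0.46).

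The 10 members that did not pass in nuclear RNA had at most 3.62 RPKM in nuclear dox, Mrpl33 apart. The 14 that did not pass in total RNA included the more abundant Mrps21 (16.3 RPKM with dox and 13.1 RPKM without). The smallest nuclear fold changes, after Mrpl47, were those of Mrpl50 (2.63 RPKM with dox and 3.16 RPKM without; -0.26, adjusted p = 0.179), Mrpl1 (-0.15, adjusted p = 0.668), Mrps25 (2.11 and 1.65 RPKM; 0.35, adjusted p = 0.128) and Mrpl33 (15.8 and 12.4 RPKM; 0.35, adjusted p = 0.0659). In total RNA the smallest were those of Mrpl47, Mrpl42 (6.08 RPKM with dox and 7.06 RPKM without; -0.22, adjusted p = 0.511), Mrpl32 (3.27 and 3.44 RPKM; -0.08, adjusted p = 0.872), Mrpl1 (0.03) and Mrpl50 (0.06). Mrpl32, whose maturation by the m-AAA protease is known to gate assembly of the ribosome, did not pass the test in nuclear RNA either (2.96 RPKM with dox and 1.69 RPKM without; 0.81, SE 0.384, adjusted p = 0.0765). Mrpl42 did (8.07 and 4.39 RPKM; 0.88, SE 0.279, adjusted p = 0.0129).

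Dox differences were larger in nuclear than in total RNA for 63 of 78 members, with a median difference of 0.22 on the log2 scale against 0.00 for all tested genes. That median was 0.09 with quantile normalization (-0.02 for all tested genes), 0.09 with the length trend removed (-0.01) and 0.09 with length and GC trends removed (-0.02). The excess was not particular to the members. As deposited, the median difference was 0.53 for cytoplasmic ribosomal protein genes (above 0 for 80 of 84). For nuclear-encoded respiratory chain genes it was 0.42 (above 0 for 74 of 79). As a test of the difference itself, 0 of 78 members and 0.0% of tested genes passed at an adjusted p below 0.05 by limma. At an unadjusted p below 0.05, 15 members had a larger difference in nuclear RNA and 0 a smaller one (904 and 437 of all 10197 tested genes). Without moderated variances 0 members passed. The largest differences were those of Mrpl42 (1.10, SE 0.394), Mrpl14 (1.09, SE 0.358) and Mrps18c (1.09, SE 0.277, unadjusted p = 0.00175, adjusted p = 0.127), and the smallest those of Mrpl50 (-0.32), Mrpl19 (-0.21) and Mrpl1 (-0.17). With tests confined to genes of at least 5 RPKM in a group, Mrps18a was called (0.84, adjusted p = 0.0475). It was the 1 member called of 61 tested there. Among all 4895 genes of that setting 109 were higher (2.23%) and 12 lower (0.245%).

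By the counts of calls, nuclear and total columns differed less in these genes than dox and no-dox columns did. With dox 4 members were higher in nuclear than in total RNA and 4 lower, where 5.83% of tested genes were higher and 34.9% lower (6 and 7 members at an unadjusted p below 0.05). The median log2 fold change of nuclear over total was -0.02 for members and -0.32 for all tested genes. Without dox 0 members were higher and 22 lower, where 4.0% of tested genes were higher and 34.7% lower (0 and 36 members at an unadjusted p below 0.05), with medians of -0.27 and -0.31. These directions depend on how the columns are scaled to each other. With columns centred on their median gene, 28 members were higher and 0 lower with dox, and 5 were higher and 2 lower without; with quantile normalization the counts were 9 and 0 with dox, and 13 and 2 without. Over all tested genes the calls were split into 594 higher and 3560 lower with dox as deposited, 1671 and 1383 after centring, and 916 and 1085 after quantile normalization. Without dox they were 408 and 3538, 1160 and 1566, and 1860 and 1797. Relative to the median of all tested genes the members lay 0.30 higher with dox and 0.04 higher without.

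Of the 8 members called with dox 6 were Mrps genes, and of the 22 called without dox 12 were. With dox Mrps11, a protein of the platform, was higher in the nuclear column (3.98 RPKM in nuclear against 2.45 RPKM in total RNA; 0.70, SE 0.160, adjusted p = 0.00389), as were Mrps26 (13.3 against 8.54 RPKM; 0.64), Mrpl12 (0.55, SE 0.123, adjusted p = 0.00332) and Mrps18c (0.54, adjusted p = 0.0412). Lower were Mrps22 (3.76 RPKM in nuclear against 6.48 RPKM in total RNA; -0.79, SE 0.247, adjusted p = 0.0224), Mrps6 (4.998 against 8.45 RPKM; -0.76), Mrps2 (9.998 against 16.0 RPKM; -0.68) and Mrpl43 (-0.37, adjusted p = 0.0393). Mrpl23, Mrps36 and Mrpl39 also stood at the ends and did not pass (0.52, -0.65 and -0.44). Without dox the lowest was Mrps6 again (1.39 RPKM in nuclear against 3.28 RPKM in total RNA; -1.24, SE 0.181, adjusted p = 0.000174), then Mrpl27 (1.81 against 4.10 RPKM; -1.18), Mrps36 (-1.04), Mrpl32 (-1.03) and Mrps22 (1.97 against 3.65 RPKM; -0.89). Mrps6, Mrps22, Mrps2 and Mrpl43 passed the test with and without dox and were lower in the nuclear column in both, as the columns were deposited. The highest without dox were Mrps10 (0.28), Mrps26 (0.26), Mrpl58 (0.24), Mrpl18 (0.16) and Mrpl55 (0.15), and none of these passed.

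**Figure D4:**
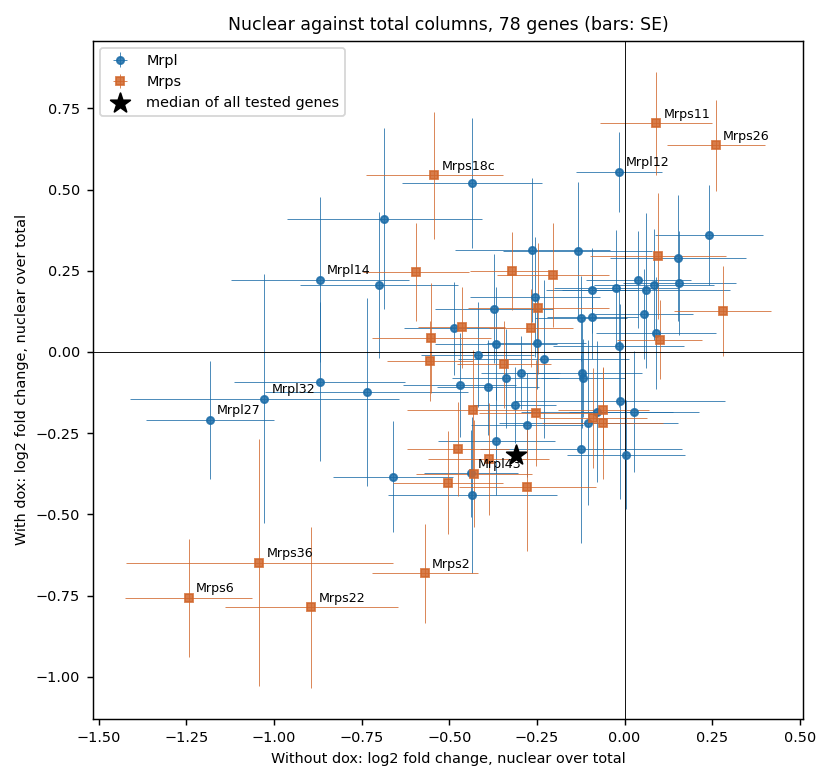
Log2 fold change of nuclear over total RNA with dox (vertical) and without dox (horizontal) for the 78 genes, with bars of 1 SE, and the median of all tested genes as a star (-0.32 and -0.31). Mrps6, Mrps22 and Mrps2 lie at the bottom left, and Mrps11, Mrps26 and Mrpl12 at the top.

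Genes that act with the mitochondrial ribosome held both higher and lower members. Of all tested genes 43.1% were higher and 26.2% lower with dox in nuclear RNA, and 41.5% and 22.8% in total RNA. Of 5 subunits that carry other names 4 were higher in nuclear RNA and 3 in total RNA (medians 1.34 and 0.91): Gadd45gip1, also named MRPL59, had 25.5 RPKM in nuclear dox against 6.29 RPKM in nuclear no dox (2.02, and 1.81 for total RNA). Aurkaip1 (1.65 and 0.91), Dap3 (1.34 and 1.46) and, in nuclear RNA, Chchd1 (0.72) were also called. Ptcd3, the pentatricopeptide protein of the small subunit, did not pass in either (8.28 RPKM in nuclear dox and 9.42 RPKM in nuclear no dox; -0.19, adjusted p = 0.411). Of 21 genes of ribosome assembly and rRNA modification 15 were higher and 2 lower in nuclear RNA and 14 and 1 in total RNA (medians 1.12 and 0.81). Rpusd3, a pseudouridine synthase (2.01 and 1.34), and Rbfa, which matures the small subunit (1.99 and 1.61), were higher, while Fastkd2 (-1.05 and -0.50) and, in nuclear RNA, Mettl17 (-0.71) were lower. Mterf3 had the lowest value in total RNA and did not pass (-0.52, adjusted p = 0.174).

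Of the 15 tested mitochondrial translation factors 6 were higher and 3 lower in each kind of RNA (medians 0.20 and 0.51), near the shares of all tested genes (43.1% higher and 26.2% lower in nuclear RNA, 41.5% and 22.8% in total RNA). Tufm, the elongation factor that brings tRNA, had 30.8 RPKM in nuclear dox against 7.31 RPKM in nuclear no dox (2.08 and 1.92), and its exchange factor Tsfm was also higher (1.71 and 1.79). Guf1 (-2.04 and -1.50) and Mtrf1l, a release factor (-1.57 and -1.34), were lower. Among 10 genes of mitochondrial transcription and DNA upkeep 2 were higher and 4 lower in nuclear RNA, and 0 higher and 2 lower in total RNA (medians -0.41 and -0.15; in total RNA 1 was higher and 2 lower at an unadjusted p below 0.05). Mterf2 (-1.9996 and -2.09) and Ssbp1, which binds single-stranded mitochondrial DNA (-1.38 and -1.37), were lower. Polrmt, the mitochondrial RNA polymerase (0.36), and Polg, the DNA polymerase (0.34), were higher in nuclear RNA as deposited, and not with columns centred on their median gene, where 0 of the 10 were higher and 5 lower, or with quantile normalization, where the counts were 0 and 4. Tfb2m had 0.38 in total RNA, the highest there, and did not pass (adjusted p = 0.247).

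Of 9 tested nuclear respiratory factors and coactivators 4 were higher and 2 lower in nuclear RNA, and 5 and 2 in total RNA (medians 0.33 and 0.46). In nuclear RNA these shares and the median were near those of all tested genes (43.1% higher, 26.2% lower, median 0.28). Nrf1 itself did not pass (2.54 RPKM in nuclear dox and 2.19 RPKM in nuclear no dox; 0.21, adjusted p = 0.357). Gabpa and Gabpb2, subunits of GABP, were lower: Gabpa had 3.30 RPKM in nuclear dox against 7.59 RPKM in nuclear no dox (-1.20 and -0.86), and Gabpb2 had -1.10 and -0.93. Gabpb1, the other one, did not pass (adjusted p = 0.977 in nuclear RNA). Esrrb (1.33 and 1.08) and, by kind of RNA, Esrra (0.80 in nuclear) and Myc (1.67 in total) had the highest fold changes. Myc had the lowest level of this list in total RNA, with 1.32 RPKM with dox and 0.413 RPKM without. The 2 larger groups stand beside the members. Cytoplasmic ribosomal protein genes were higher for 79 of 84 in nuclear RNA (median 1.87) and 77 in total RNA (1.26), and nuclear-encoded respiratory chain genes for 68 (1.27) and 60 (0.77) of 79. Quantile normalization moved these medians more than that of the members: in nuclear RNA 29 cytoplasmic ribosomal protein genes were then higher and 15 lower (median 0.08), and 38 respiratory chain genes higher and 14 lower (median 0.40), against 59 and 2 members (median 0.78) and 34.8% and 29.6% of all tested genes. In total RNA 22 and 15 cytoplasmic ribosomal protein genes (median 0.03) and 28 and 23 respiratory chain genes (median 0.09) were then higher and lower, against 53 and 1 members (median 0.61) and 34.7% and 28.0% of all tested genes. In nuclear against total RNA without dox both lay below the members, with medians of -0.63 (73 lower) and -0.55 (58 lower), against -0.27 (22 lower) for the members as deposited, and with quantile normalization medians of -0.17 (14 lower) and -0.13 (14 lower), against 0.10 (2 lower); these differences between lists were not tested.

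**Figure D5:**
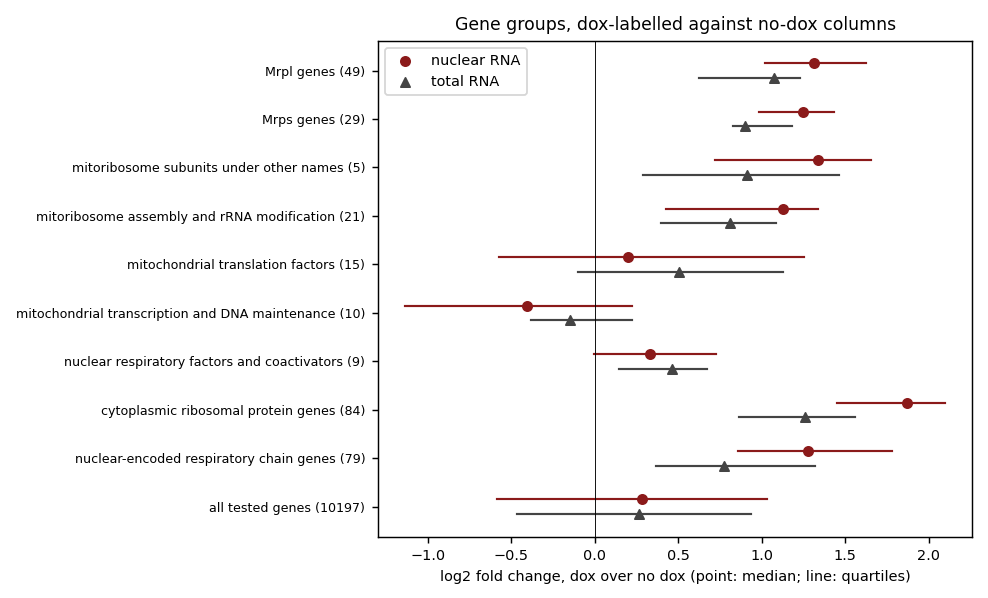
Median (point) and quartiles (line) of the log2 fold change of dox over no dox in nuclear RNA (circles) and total RNA (triangles) for 9 gene groups and all tested genes, with the number tested in brackets. Mrpl and Mrps genes lie at 1.31 and 1.25 in nuclear RNA, cytoplasmic ribosomal protein genes at 1.87, and genes of mitochondrial transcription and DNA maintenance at -0.41.

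Members were shorter than other tested genes, and close to them in GC content. Their exons summed to a median of 2394 bases, against 4319 for all tested genes, with a median GC content of 49.8% and 50.1% (GENCODE M21). Across tested genes the nuclear dox fold change fell with exon length (Spearman's rho -0.416) and rose with GC content (0.467), and among the members rho was -0.198 and 0.497. These values are across genes, which share the libraries, and are given as a description. With the trend on length removed, the median of the members was 0.85 in nuclear RNA, against 0.32 for all tested genes, and 62 were higher and 1 lower (Mrpl50). With length and GC trends removed it was 1.02, against 0.47, and 65 were higher and 0 lower. The part of length and GC content in the result was otherwise not tested.

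Many members start head to head with another gene. Within 500 bases 25 of 78 (32.1%) had a start on the other strand, against 15.0% of 10013 annotated tested genes. Mrpl46 and Mrps11 form such a pair with each other, so that both products go to the same ribosome (1.63 and 1.25 in nuclear RNA, 1.37 and 0.64 in total RNA). Of 19 tested partners that are no members 12 (63.2%) were higher and 3 (15.8%) lower in nuclear RNA, and 10 and 0 in total RNA, where 43.1% of all tested genes were higher and 26.2% lower in nuclear RNA, and 41.5% and 22.8% in total RNA. Mrps12 faces Sars2, the mitochondrial seryl-tRNA synthetase (1.43 and 1.36 in nuclear RNA), Mrpl36 faces Ndufs6 of complex I (1.02 and 0.80), and Mrpl49 faces Fau, which encodes a cytoplasmic ribosomal protein (1.11 and 2.07). Others did not move together in nuclear RNA. Mrps34 was higher in nuclear RNA and its partner Eme2 lower (1.80 and -0.996), as were Mrpl30 and Mitd1 (1.34 and -0.91) and Mrps18c and Helq (1.17 and -0.68). In total RNA none of these partners passed (limma adjusted p = 0.0905 for Eme2, 0.0758 for Mitd1 and 0.930 for Helq). Levels were low in nuclear RNA for Eme2 (0.645 RPKM with dox and 1.29 RPKM without) and Mitd1 (0.518 and 0.971 RPKM). The pairs named here were chosen after their values were seen. A gene on the other strand overlapped 36 of 78 members (46.2%, against 43.7% of tested genes), Mrpl12 among them, and whether counting used the strand is not given in the sources used here, so reads of such pairs may be mixed. Among the 42 members with no such overlap 36 were higher in nuclear RNA (85.7%) and 32 in total RNA.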

How the data were processed

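Libraries were directional and depleted of rRNA, per the labels' protocols; bcl2fastq 2.17.1, TopHat and mm10 are named in the submitters' processing notes. RPKM and ANOVA came from Partek 6.6, per the file headers, which give group means as log2(RPKM + 0.001). The authors also deposited ANOVA p-values and q-values, a ratio and a signed fold change (a score); the ratio and fold change repeat the means. Annotation and counting are not given in the sources used here.

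The residual SD of each gene was recovered from its deposited p-values: with 6 residual degrees of freedom both gave the same SD within 0.001 for 100% of 16338 genes, against 10.7% with 5 and 12.8% with 7. Depth was estimated from the steps of low RPKM values, with GENCODE M21 exon lengths and the group sizes taken for the fit. limma 3.58.1 (R 4.3.3) moderated these variances along a trend (median prior degrees of freedom 6.97) for 5 contrasts, with Benjamini-Hochberg adjustment over 10197 genes; the threshold was 0.05. Values in RPKM are geometric means. In simulated data 200 of 10197 genes were changed, in nuclear RNA alone. There the test found 68% of the 1-log2 changes and 94% of the 2-log2 changes, and 6.36% of 173 calls were false. In the real nuclear comparison 43.1% of genes were called higher and 26.2% lower, so these rates need not hold for the member calls. Named members are the 5 largest and smallest in each two-group comparison, the 3 at each end of the difference, the 5 at each end of the levels and 7 long-known or paralogous ones, and of other lists the 2 at each end in each dox comparison; others were named after their values were seen. Members and lists were chosen with earlier results of these data known. The alternatives in the closing section were recomputed for each result.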

Additional observations from a re-analysis of the deposited data

How the results depend on the processing

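Under every alternative run, both subunits kept positive median dox fold changes and at least 53 members were higher in each kind of RNA where all 78 were tested. Members called lower in nuclear RNA numbered 2 (quantile normalization), 2 (columns centred on their median) and 1 (length trend removed), against 0, and in total RNA 1 and 1 under the first pair. In nuclear RNA the Mrpl median of 1.31 became 0.79 with quantile normalization, 0.85 without the length trend, 1.03 without length and GC trends and 1.03 as log2(RPKM + 1), and the Mrps median of 1.25 became 0.74, 0.84, 1.02 and 1.04. In total RNA the Mrpl median of 1.07 became 0.66 with quantile normalization, 0.73 without the length trend and 0.85 without length and GC trends, and the Mrps median of 0.90 became 0.55 with quantile normalization. For the difference of the dox effects 1 of 61 members passed among genes of at least 5 RPKM, against 0. In that setting 2.23% of all 4895 genes were higher.

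Nuclear against total RNA depended on scaling. With dox, 4 members were higher, against 9 (quantile), 28 (centred), 2 (length and GC) and 2 (at least 1.5-fold), and 4 lower, against 0 (quantile), 0 (centred), 8 (length) and 9 (length and GC). Without dox, 0 were higher, against 13 (quantile) and 5 (centred), and 22 lower, against 12 (no low-value filter), 10 (no moderation), 2 (quantile), 2 (centred) and 10 (at least 1.5-fold). With dox the Mrpl median of 0.02 became 0.26 (quantile), 0.39 (centred), -0.0915 (length) and -0.10 (length and GC), and the Mrps median of -0.04 became 0.19 and 0.33 under the first pair. Without dox the Mrpl median of -0.25 became 0.16 (quantile) and 0.0721 (centred), and the Mrps median of -0.34 became 0.0168 and -0.0199. Among single genes, 2 changed sign in nuclear RNA: Mrpl1 (0.72 without length and GC trends) and Mrpl33 (-0.53 with quantile normalization). The cause of these moves was not tested.

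No paired analysis was possible because the table holds group means alone, and leaving out single libraries could not be run for the same reason. Whether 2 of the 12 libraries stayed out of the table, and which, is not known. Dox and depth cannot be told apart, since every dox library with an estimated depth was shallower. Grouping members by structure, and by overlap with other-strand genes, was chosen after seeing the data and moved no median or share beyond the spread.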
